A study of Oryza sativa with 36 samples.

Results

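The class A heat shock factors of rice were measured in young panicles under drought on the Affymetrix Rice Genome Array. They were taken as every probe set whose gene record carries a name among HSFA1, HSFA2A, HSFA2B, HSFA2C, HSFA2D, HSFA2E, HSFA3, HSFA4B, HSFA4D and HSFA5. All 10 names were found, with 14 of the 57381 probe sets. HSFA2A was measured by Os.2292.3.S1_x_at, which stands for the gene here, and by Os.2292.1.S1_a_at and Os.2292.2.S1_at. HSFA2C was measured by Os.10942.1.S1_a_at and Os.4766.1.S1_at, and HSFA2D by Os.2217.1.S1_a_at and Os.40021.1.S1_a_at. These 7 probe sets are called by the number in their names below, and the other 7 genes had 1 probe set each.

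RNA came from panicles about 2 cm long, of drought-stressed plants in plots drained from late tillering and of well watered plants. By the study's methods, 4 varieties are drought tolerant (HUHAN3, MILT1444, EMATAYIN and DOURADOAGULHA) and 2 are sensitive (NIPPONBARE and KHAUMEO). DOURADOAGULHA and KHAUMEO are indica, and the other 4 are japonica. Each of the 12 groups of variety and treatment has 3 arrays from independent experiments, 36 arrays in all. A whole panicle was measured, so fewer cells of a type and less RNA per cell cannot be told apart.

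Heat shock factors are transcription factors that bind heat shock elements in promoters as trimers and switch on the genes of chaperones. Class A factors carry activation motifs, while class B factors lack them and many repress. In tomato and Arabidopsis, HSFA1 starts the heat response, and HSFA2, which is made during that response, prolongs it. The chaperones they control hold unfolded proteins or pull apart aggregates.

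The gene records of HSFA2C and HSFA2D limit what their probe sets stand for. That of HSFA2C also carries the names ARD1 and SIP2 and is typed as a transcribed pseudogene, and that of HSFA2D also carries ARD2 and SIP2A. ARD stands for acireductone dioxygenase, an enzyme of methionine salvage. Over 36 arrays the probe sets of HSFA2C had a Pearson r of -0.61 with each other and those of HSFA2D one of -0.17, whereas the 3 of HSFA2A had r between 0.87 and 0.95. Each probe set of HSFA2C and HSFA2D is therefore described alone, and which transcript it measures was not tested.

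Values are intensities on a linear scale, with array medians between 55.8 and 68.8. All 12 panicle MADS-box genes, floral regulators that mark the tissue, read at least 100.5 on every array. The well watered arrays numbered replicate 3 stood apart from replicates 1 and 2 in several members. The labels do not say whether a number marks an experiment shared between varieties. Drought tests and comparisons of varieties are given with and without these 6 arrays, and correlations over all 36 arrays only. Leaving out the 6 raises the drought difference by construction for a probe set that reads highest on them. It lowers the difference for a probe set that reads lowest on them.

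HSFA2A varied widely between arrays of a group. In HUHAN3, probe set 2292.3 read 144, 450 and 654 in drought-stressed panicles, against 45.5, 241 and 261 in well watered panicles (replicates 1, 2 and 3). In EMATAYIN it read 42.5, 486 and 46.6 in drought-stressed panicles, against 51.9, 92.8 and 118 in well watered panicles. The treatments overlapped in both varieties, and a single drought-stressed EMATAYIN array stood far above the other 2. In MILT1444 it read 173, 108 and 188 in drought-stressed panicles, against 65.7, 56.3 and 609 in well watered panicles. In NIPPONBARE it read 111, 133 and 182 in drought-stressed panicles, against 99.1, 81.8 and 254 in well watered panicles. In these 2 varieties well watered replicate 3 lay above every drought-stressed array, while well watered replicates 1 and 2 lay below them all. In DOURADOAGULHA the values were 198, 101 and 32.3 in drought-stressed panicles, against 52.5, 53.7 and 220 in well watered panicles. In KHAUMEO they were 57.1, 60.3 and 32.3 in drought-stressed panicles, against 33.1, 46.7 and 64.8 in well watered panicles. Here too the treatments overlapped, with replicate 3 the lowest drought-stressed and the highest well watered array.

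The drought-stressed means of HSFA2A fell in the order HUHAN3 (416 ± 257), EMATAYIN (192 ± 255), MILT1444 (156 ± 42.1), NIPPONBARE (142 ± 36.6), DOURADOAGULHA (110 ± 83.2) and KHAUMEO (49.9 ± 15.3; SD, n = 3 each). Neighbours in this order differed by less than the larger of their SDs. On the log2 scale the SD within a group was 1.16, above 99.9% of all probe sets, whose median SD was 0.21.

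**Figure D1:**
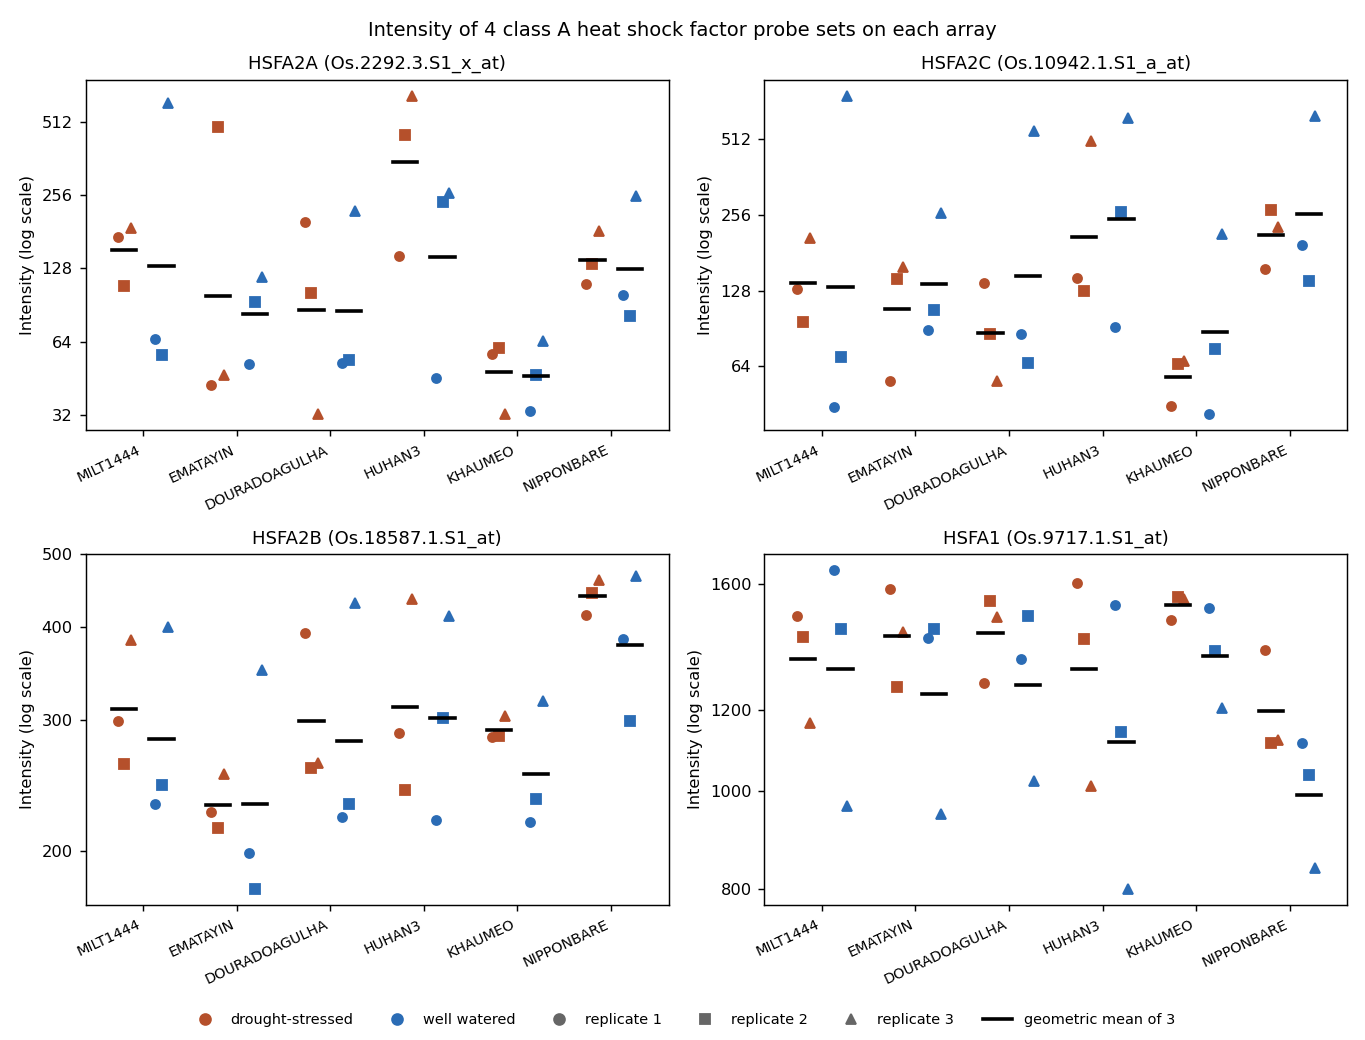
Intensity (log axis) of HSFA2A (2292.3), HSFA2C (10942), HSFA2B and HSFA1 on each of 36 arrays by variety, drought-stressed left of well watered; symbols give the replicate number and bars the geometric mean of 3 arrays. The well watered triangles, replicate 3, are the highest of their group in 6 of 6 varieties for the first 3 probe sets and the lowest in 6 of 6 for HSFA1.

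No class A factor passed the test of the average drought response, the mean over 6 varieties of the log2 difference between drought-stressed and well watered panicles. A probe set passed with a limma p of at most 0.05 after Benjamini-Hochberg adjustment over 57194 probe sets. The fit treats same-numbered arrays of different varieties as independent, so its p values do not allow for a deviation they share. Of 14 members 0 passed and 3 had an unadjusted p under 0.05, while 42.1% of all probe sets passed, 20.6% higher and 21.5% lower under drought. With 1 array left out, 3 members passed without HUHAN3 well watered replicate 1 or HUHAN3 drought-stressed replicate 3. Then 2 passed without MILT1444 drought-stressed replicate 3 or DOURADOAGULHA drought-stressed replicate 1. Then 1 passed without MILT1444 well watered replicate 1 or 3, EMATAYIN drought-stressed replicate 3, NIPPONBARE well watered replicate 2 or NIPPONBARE drought-stressed replicate 1. A change of at least 2-fold was rare, in 0.383% of all probe sets and 0 members. The members' log2 differences lay between -0.36 and 0.40 with a median of 0.12, against a median of -0.01 over all probe sets.

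HSFA2A had an average response of 0.33 in probe set 2292.3 (standard error 0.36, limma adjusted p = 0.489), 0.40 in 2292.1 (standard error 0.24, adjusted p = 0.18) and 0.16 in 2292.2 (standard error 0.21, adjusted p = 0.556). The 95% confidence interval of 2292.3 ran from -0.41 to 1.06, so a 2-fold rise lies inside it. HSFA3, which acts downstream of the drought factor DREB2A in Arabidopsis, ranged from 154 to 837 with a median of 498 on drought-stressed arrays, and from 169 to 586 with a median of 400 on well watered arrays. The treatments overlapped, and its average response was 0.40 (standard error 0.19, adjusted p = 0.0873), positive in 6 of 6 varieties and in 4 of 6 without well watered replicate 3. HSFA1 had 0.18 (standard error 0.087, adjusted p = 0.0996), positive in 6 of 6 varieties and in 3 of 6 without those arrays. HSFA2C probe set 4766 had 0.29 (standard error 0.12, adjusted p = 0.0617), positive in 4 of 6 with and without them.

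HSFA4D is the rice gene SPL7, whose mutation gives spotted leaves. It had an average response of 0.13 (standard error 0.078, limma adjusted p = 0.171), positive in 6 of 6 varieties with and without well watered replicate 3. HSFA5, a repressor of HSFA4 in tomato and Arabidopsis, had 0.09, and HSFA4B had -0.08. HSFA2E, a rice factor that raised thermotolerance when expressed in Arabidopsis, read 858 to 1284 on drought-stressed arrays and 995 to 1303 on well watered arrays. Its average response was -0.05 with an interval from -0.12 to 0.03, so a change of 2-fold lies outside it. HSFA2B had 0.11 (standard error 0.11, adjusted p = 0.44), and HSFA2D had 0.02 in probe set 2217 and -0.10 in 40021. HSFA2C probe set 10942 had -0.36 (standard error 0.36, interval -1.09 to 0.38, adjusted p = 0.445). It was negative in 5 of 6 varieties, and positive in 6 of 6 without well watered replicate 3.

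**Figure D2:**
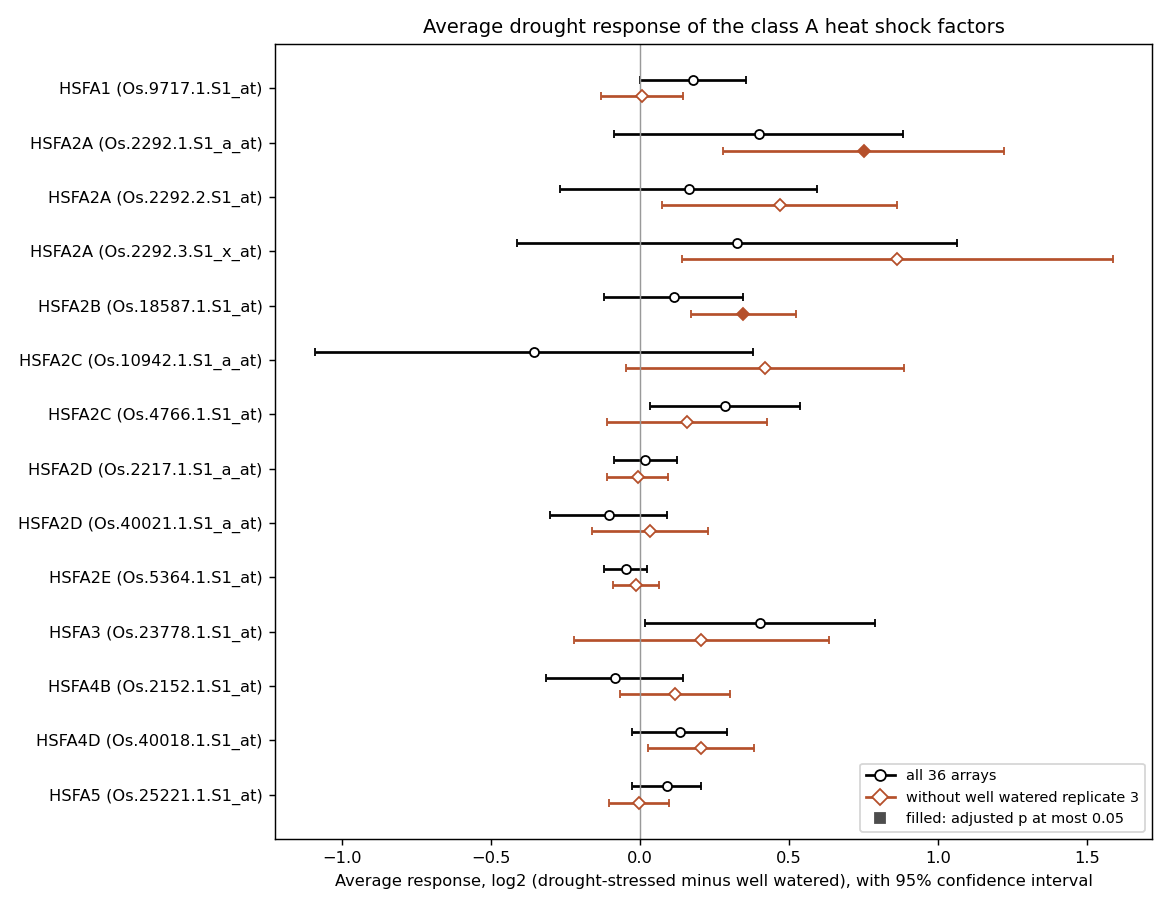
Average drought response of the 14 probe sets (log2, drought-stressed minus well watered) with 95% confidence intervals; black circles use all 36 arrays, brown diamonds leave out the 6 well watered replicate 3 arrays, and filled symbols have an adjusted p of at most 0.05. Every circle is open, and the diamonds of HSFA2B (0.35) and HSFA2A probe set 2292.1 (0.75) are filled. For both, the arrays left out were the highest well watered ones, so these diamonds lie to the right by construction.

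Within single varieties, 0 of 84 pairs of member and variety passed and 2 had an unadjusted p under 0.05. The share of all probe sets that passed was 11.0% in NIPPONBARE, 4.15% in HUHAN3, 3.43% in MILT1444, 3.02% in DOURADOAGULHA, 1.65% in KHAUMEO and 0.11% in EMATAYIN. Both pairs were of HSFA2C probe set 4766. In EMATAYIN it read 1229, 1141 and 838 in drought-stressed panicles, against 530, 641 and 450 in well watered panicles, with no overlap and a log2 difference of 0.98 (standard error 0.30, limma adjusted p = 0.192). In HUHAN3 it read 902, 1116 and 524 in drought-stressed panicles, against 814, 523 and 308 in well watered panicles, which overlapped, with a difference of 0.67 (standard error 0.30, adjusted p = 0.19). The other pair without overlap was HSFA2E in EMATAYIN, at 858, 869 and 988 in drought-stressed panicles, against 1033, 1001 and 995 in well watered panicles. So 2 of 84 pairs did not overlap, beside 23.9% of all pairs of probe set and variety. For HSFA2A probe set 2292.3 the largest difference was 1.30 in HUHAN3 (standard error 0.88, adjusted p = 0.406). When well watered replicate 3 was left out, 0 of 84 pairs passed by limma, with a smallest adjusted p of 0.149, and 3 had an unadjusted p under 0.05. The share of all probe sets was then 9.85% in NIPPONBARE, 7.06% in MILT1444, 3.14% in HUHAN3, 2.57% in DOURADOAGULHA, 1.77% in EMATAYIN and 1.04% in KHAUMEO. The 3 pairs were HSFA2C probe set 4766 in EMATAYIN (0.86) and 10942 in MILT1444 (1.31), and HSFA2A probe set 2292.1 in HUHAN3 (1.42). For 10942 and 2292.1 the array left out was the highest well watered one, so the difference rose by construction.

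The responses were also compared between tolerant and sensitive varieties. The p values and intervals measure the spread between the 3 arrays of a group, not that among tolerant or among sensitive varieties. Of 14 members 0 passed, and 0.0% of all probe sets did. The members' differences lay between -0.31 for HSFA3 and 0.44 for HSFA2C probe set 4766 (limma adjusted p = 0.832). For HSFA2A probe set 2292.3 the difference was 0.36 with an interval from -1.21 to 1.92, so differences of over 2-fold either way lie inside it. In an F test of any difference in response among the 6 varieties 0 of 14 members passed, beside 0.0542% of all probe sets. The count at an unadjusted p under 0.05 was 0 in both tests. Both counts of members were again 0 without well watered replicate 3, at the adjusted and the unadjusted threshold, beside 0.00699% of all probe sets for tolerant minus sensitive and 0.145% for the F test. HSFA2A probe set 2292.3 then had 0.61 for tolerant minus sensitive, with an interval from -0.92 to 2.14.

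Several factors differed between replicate numbers within the well watered group. This was examined after the values were seen, so its p values describe a chosen comparison. An F test over the 3 numbers, with the varieties averaged, passed for 5 of 14 members in well watered panicles, beside 7.1% of all probe sets. The 5 were HSFA2C probe set 10942 (limma adjusted p = 0.000851), HSFA2B (0.00162), HSFA1 (0.00252), HSFA4B (0.00661) and HSFA5 (0.0317). The 3 probe sets of HSFA2A missed, with adjusted p between 0.0549 and 0.0602. Without HUHAN3 drought-stressed replicate 3 the count was 9. It was 8 without HUHAN3 well watered replicate 2, or without drought-stressed replicate 1 of HUHAN3 or DOURADOAGULHA or replicate 2 of EMATAYIN. In drought-stressed panicles the test passed for 0 of 14 members and 0.0% of all probe sets, and 3 members had an unadjusted p under 0.05.

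HSFA2C probe set 10942 showed the difference in every variety. In well watered replicate 3 it read 622 in HUHAN3, 760 in MILT1444, 634 in NIPPONBARE, 548 in DOURADOAGULHA, 260 in EMATAYIN and 215 in KHAUMEO. In well watered replicates 1 and 2 it read 91.3 and 261 in HUHAN3, 44.2 and 69.5 in MILT1444, and 193 and 140 in NIPPONBARE. It read 86.2 and 66.1 in DOURADOAGULHA, 89.6 and 108 in EMATAYIN, and 41.3 and 75.3 in KHAUMEO. Replicate 3 was the highest of the 3 well watered arrays in 6 of 6 varieties. In drought-stressed panicles replicate 3 ranged from 56.1 to 501 with a median of 182, and replicates 1 and 2 from 44.4 to 267 with a median of 129. Replicate 3 minus the mean of 1 and 2 was 0.52 in drought-stressed panicles (standard error 0.30, limma adjusted p = 0.485) and 2.32 in well watered panicles (standard error 0.30, adjusted p = 0.000225), a ratio of 5.01 in well watered panicles.

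By this contrast 9 of 14 members passed in well watered panicles, 7 higher and 2 lower in replicate 3, beside 12.2% of all probe sets, 8.02% higher and 4.22% lower. The 9 were probe sets of 7 genes. HSFA2A probe set 2292.3 ranged from 64.8 to 609 with a median of 237 in replicate 3, and from 33.1 to 241 with a median of 55.0 in replicates 1 and 2. It was higher by 1.61 (standard error 0.45, limma adjusted p = 0.023), and probe sets 2292.1 and 2292.2 by 1.06 and 0.91. HSFA2B read 318 to 467 in replicate 3 and 178 to 385 in replicates 1 and 2, and was higher by 0.70 (standard error 0.10, adjusted p = 0.000397). HSFA4B was higher by 0.61 and HSFA2D probe set 40021 by 0.41. HSFA1 went the other way, with 800 to 1205 in replicate 3, 1036 to 1650 in replicates 1 and 2 and a difference of -0.51 (standard error 0.083, adjusted p = 0.000793), and HSFA5 had -0.28.

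Replicate 3 lay above both other well watered arrays in 6 of 6 varieties for HSFA2A probe sets 2292.1 and 2292.3, HSFA2B, HSFA2C probe set 10942 and HSFA4B. It lay below both in 6 of 6 for HSFA1 and HSFA5. Of all probe sets 3.27% were above and 1.72% below in 6 of 6. Without MILT1444 well watered replicate 3, or without HUHAN3 well watered replicate 3, 5 members passed instead of 9. HSFA2A probe set 2292.3 did not pass in either case, nor without DOURADOAGULHA well watered replicate 3. HSFA1, HSFA2B, HSFA4B and HSFA2C probe set 10942 passed with any 1 array left out.

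In drought-stressed panicles 0 of 14 members passed for replicate 3 minus 1 and 2, beside 0.00525% of all probe sets, and 4 members had an unadjusted p under 0.05. The difference of the contrast between drought-stressed and well watered panicles passed for 1 of 14 members, beside 1.42% of all probe sets. That member was HSFA2C probe set 10942, with -1.80 (standard error 0.42, limma adjusted p = 0.0365). Leaving out any of 12 of the 36 arrays ended this call, with adjusted p then between 0.0518 and 0.0814. HSFA2A probe set 2292.3 had -1.98 (standard error 0.64, adjusted p = 0.0957).

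Chaperone genes are known targets of heat shock factors, but whether the factors acted on them here was not tested. Of 19 small heat shock proteins, which hold unfolded proteins, 13 were higher and 0 lower in well watered replicate 3, with a median of 0.89 against 0.03 over all probe sets. HSP24.1 was higher by 2.17, HSP18.6 by 1.73 and HSP26.7 by 1.70. Of 6 HSP100/Clp genes 3 were higher, among them HSP101, a disaggregase, by 1.42 (standard error 0.26, limma adjusted p = 0.00155). Of 5 class B factors 4 were higher, HSFB2A by 1.39, HSFB2C by 1.31, HSFB4B by 1.22 and HSFB2B by 1.08. Of 3 class C factors 1 was lower, HSFC1B with -0.95. Of 3 HSP90 genes 1 was higher, and of the 2 BiP genes, BIP1 and BIP4, 1. No gene was found under the listed HSP70 names.

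For replicate 3 minus 1 and 2 in drought-stressed panicles, 0 of 19 small heat shock proteins and 0 of 5 class B factors passed. Only 0.00525% of all probe sets passed there, so a count of 0 in a short list says little. The medians were 0.01 for the small heat shock proteins and 0.21 for the class B factors. Of the 6 green tissue genes 0 passed in the well watered contrast, beside 12.2% of all probe sets. Their summed intensity was 9507 to 15504 in well watered replicate 3 and 3697 to 15227 in well watered replicates 1 and 2. The sum was mostly CAB2R, with a median of 7774 in well watered replicate 3 beside 11765 for the sum. RBCS-A read only 4.71 to 8.19 there, and 7 of 29 listed green tissue names had a probe set. Of the 12 MADS-box genes 2 were lower, beside 4.22% of all probe sets, MADS15 with -0.21 and 1 of the 2 genes named MADS2 with -0.27. The list summed to 41660 to 49614 in replicate 3 and 41500 to 52984 in replicates 1 and 2. The log2 ratio of the 3′ to the 5′ control probe set, a sign of RNA integrity, was 1.36 to 1.57 for actin in well watered replicate 3 and 1.26 to 1.54 in replicates 1 and 2. For cyclophilin it was 0.84 to 1.23 in replicate 3 and 0.86 to 1.11 in replicates 1 and 2, and for GAPDH 0.81 to 1.07 in replicate 3 and 0.88 to 1.28 in replicates 1 and 2. The part of RNA integrity and tissue makeup in the replicate difference was not tested.

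**Figure D3:**
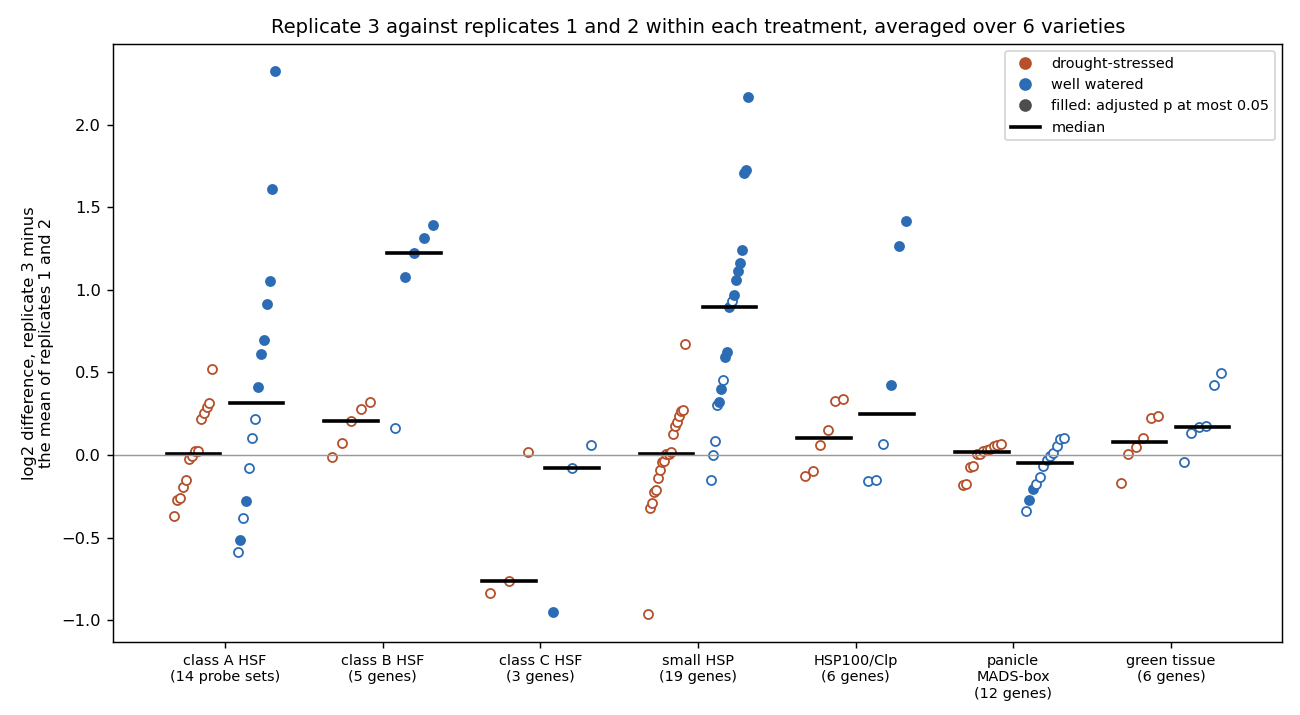
Log2 difference of replicate 3 from the mean of replicates 1 and 2, averaged over 6 varieties, for the 14 class A probe sets and the genes of 6 other lists, drought-stressed left of well watered; filled points have an adjusted p of at most 0.05 and bars are medians. In drought-stressed panicles no point is filled, and in well watered panicles 9 of 14 class A probe sets, 4 of 5 class B factors and 13 of 19 small heat shock proteins are. Of all probe sets 0.00525% passed in drought-stressed and 12.2% in well watered panicles.

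Leaving out the 6 well watered replicate 3 arrays, a choice made after the values were seen, changed which members passed in the average drought response. HSFA2B then had 0.35 (standard error 0.085, limma adjusted p = 0.00275) and HSFA2A probe set 2292.1 had 0.75 (standard error 0.23, adjusted p = 0.0118). These were 2 of 14 members, beside 39.6% of all probe sets. Both had read highest on the left-out arrays in 6 of 6 varieties. Leaving those arrays out was therefore bound to raise both differences, and the 2 p values are descriptions only. HSFA2A probe sets 2292.3 and 2292.2 had 0.86 (adjusted p = 0.053) and 0.47 (adjusted p = 0.0549). HSFA2C probe set 10942 turned to 0.42 (adjusted p = 0.143), while HSFA1 had 0.01 and HSFA3 0.21. Without replicate 3 in both treatments 4 of 14 members passed, beside 37.0% of all probe sets. They came from 2 genes, HSFA2B with 0.27 and HSFA2A, whose probe sets 2292.1, 2292.2 and 2292.3 had 0.74, 0.56 and 0.99. Both shares of members lay below the share of all probe sets.

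Other heat shock factors were read in the average drought response on all 36 arrays, where 20.6% of the whole array passed as higher and 21.5% as lower. With so many probe sets passing, a count in a short list is a description only. Of 3 class C factors 2 were higher, HSFC2A by 2.22 (standard error 0.20, limma adjusted p = 5.56e-09) and HSFC1B by 0.70 (adjusted p = 0.024). Of 4 other class A names listed 2 had a probe set, and both were higher, HSFA6B by 0.31 and HSFA9, a factor of seed maturation in sunflower and Arabidopsis, by 0.18. Of 5 class B factors 0 were higher and 1 was lower, HSFB1 with -0.21 (adjusted p = 0.0107). Without well watered replicate 3, 3 of 5 class B factors were higher, HSFB2B by 0.64, HSFB4B by 0.51 and HSFB2A by 0.37, and 0 were lower, beside 20.9% of all probe sets higher. These 3 had been higher in the arrays left out, so their differences rose by construction. HSFC1B had 0.38 without those arrays and did not pass.

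Of 19 small heat shock proteins 4 were higher and 1 lower under drought, a smaller share than the 42.1% of all probe sets that passed, with a median of 0.10 against -0.01 over all probe sets. HSP16.9A was higher by 2.08, HSP16.9B by 1.06, HSP23.2 by 0.93 and HSP21.9 by 0.16, and HSP17.8 was lower with -0.19, while HSP26.7 had 0.55 (limma adjusted p = 0.176). Without well watered replicate 3, 9 were higher and 1 lower, beside 39.6% of all probe sets, with HSP26.7 higher by 1.12. Of 6 HSP100/Clp genes 2 were higher, CLPC2 by 0.21 and CLPC1 by 0.12, chaperones of the chloroplast, and CLPC1 did not pass without well watered replicate 3. HSP101 had 0.46 (adjusted p = 0.128), and without well watered replicate 3 it was higher by 0.94 (adjusted p = 0.000658). HSP101 and HSP26.7 had both been higher in the arrays left out, so both rises were fixed in advance. Of 3 HSP90 genes 0 passed. Of the 2 BiP genes BIP1, a chaperone of the endoplasmic reticulum, was lower with -0.32 (adjusted p = 0.0184), and without well watered replicate 3 it had -0.17 and did not pass.

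Some members had levels that differed between varieties. An F test over the well watered means of 6 varieties passed for 2 of 14 members, HSFA2C probe set 4766 (limma adjusted p = 5.36e-06) and HSFA4D (0.00024), beside 34.0% of all probe sets. HSFA4B had an adjusted p of 0.0548. Without well watered replicate 3, 3 of 14 passed, beside 30.3% of all probe sets, with HSFA4B (0.004) the addition. Well watered HSFA4D averaged 41.7 ± 8.38 in DOURADOAGULHA, 41.7 ± 4.51 in KHAUMEO, 55.8 ± 9.49 in EMATAYIN, 63.2 ± 5.36 in NIPPONBARE, 69.6 ± 4.94 in MILT1444 and 84.5 ± 17.5 in HUHAN3 (SD, n = 3 each). Neighbours in this order overlapped, except KHAUMEO and EMATAYIN, whose nearest arrays read 46.1 and 46.4.

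Well watered HSFA2C probe set 4766 averaged 295 ± 38.5 in NIPPONBARE, 540 ± 96.1 in EMATAYIN, 548 ± 254 in HUHAN3, 785 ± 168 in MILT1444, 1229 ± 164 in DOURADOAGULHA and 1253 ± 176 in KHAUMEO (SD, n = 3 each). Arrays of neighbours did not overlap between NIPPONBARE and EMATAYIN or between MILT1444 and DOURADOAGULHA, and overlapped at the other steps. The array was designed on the NIPPONBARE genome, so between varieties a probe mismatch and a difference in level cannot be told apart.

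Indica and japonica varieties were compared in well watered panicles after these means were seen. The p values measure the spread between the 3 arrays of a group, not the spread between the 2 indica or the 4 japonica varieties. Of 14 members 5 passed, 3 higher and 2 lower in indica, beside 27.3% of all probe sets, 11.1% higher and 16.1% lower. HSFA2C probe set 4766 read 1057 to 1445 in indica and 251 to 962 in japonica, without overlap, a difference of 1.31 (standard error 0.18, limma adjusted p = 1.46e-06). HSFA4D read 35.7 to 51.3 in indica and 46.4 to 100.3 in japonica, a difference of -0.70 (standard error 0.12, adjusted p = 2.48e-05). HSFA4B was higher in indica by 0.58 (standard error 0.17, adjusted p = 0.00876) and HSFA2E by 0.16. HSFA2A probe set 2292.1 had -0.96 (standard error 0.36, adjusted p = 0.0446), while 2292.2 and 2292.3 had -0.56 and -0.91 and did not pass.

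Without well watered replicate 3, 4 of 14 members passed for indica minus japonica, beside 23.0% of all probe sets, and HSFA2A probe set 2292.1 (-0.73, limma adjusted p = 0.179) was not among them. Without DOURADOAGULHA well watered replicate 1, or without KHAUMEO well watered replicate 2, 3 members passed. The drought-stressed arrays come from the same varieties, so they are no separate test of the subspecies. On them HSFA4D read 37.8 to 56.1 in indica and 58.4 to 129 in japonica, without overlap. HSFA4B read 423 to 497 in indica and 210.0 to 451 in japonica there, and HSFA2C probe set 4766 read 950.1 to 1749 in indica and 212 to 1229 in japonica, both with overlap. HSFA2E read 1122 to 1284 in indica and 858 to 1270 in japonica, also with overlap. HSFA2A probe set 2292.1 overlapped too, with 37.4 to 63.6 in indica and 46.4 to 311 in japonica.

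**Figure D4:**
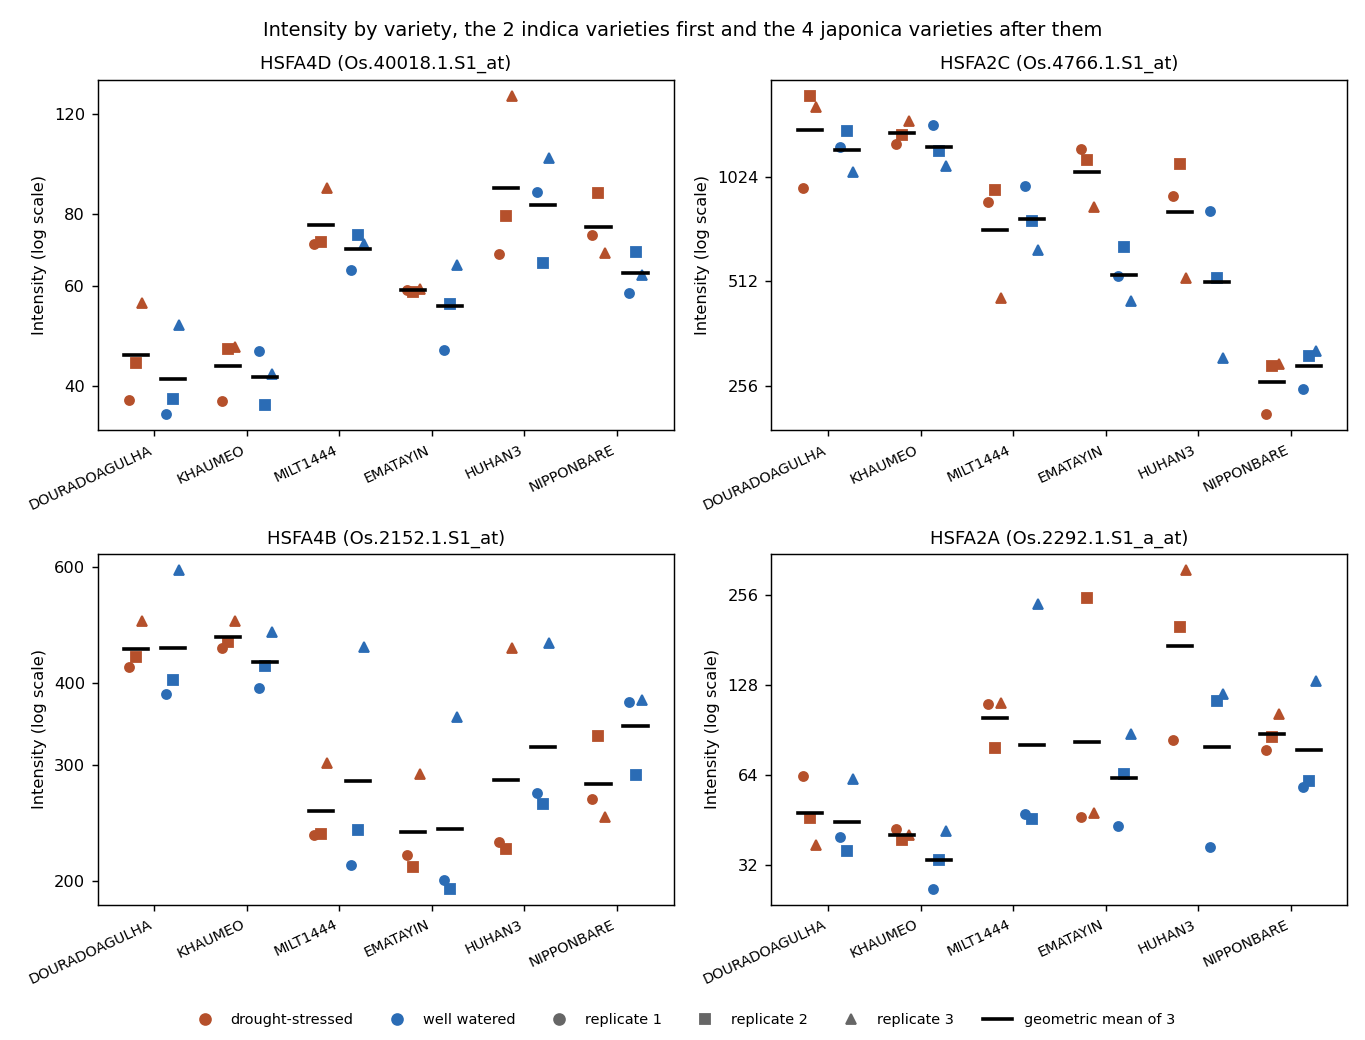
Intensity (log axis) of HSFA4D, HSFA2C (4766), HSFA4B and HSFA2A (2292.1) on each of 36 arrays, the 2 indica varieties left of the 4 japonica varieties and drought-stressed left of well watered; symbols give the replicate number and bars the geometric mean of 3 arrays. Well watered HSFA4D averaged 41.7 in both indica varieties and 55.8 to 84.5 in the japonica varieties, and HSFA2C (4766) was lowest in NIPPONBARE.

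The likeness of profiles is given as Pearson r over 36 arrays, a description in which the arrays share varieties, treatments and the replicate difference above. The named genes most like HSFA2A probe set 2292.3 were HSFB2C (0.81), HSP18.6 (0.80), HSP101 (0.78), HSFA2C probe set 10942 (0.77) and HSP24.1 (0.76). For HSFB2C and HSP18.6 these are other probe sets than those of the lists above. With the mean of each group taken out, r was 0.84, 0.82, 0.83, 0.78 and 0.80 in the same order. HSFA2C probe set 10942 was also the class A probe set most like HSFA2B (0.76, and 0.89 with group means taken out) and HSFA2D probe set 40021 (0.61, and 0.71), and HSFA1 was the least like it (-0.89).

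HSFA1 and HSFA3 were most like each other, with 0.71, and 0.64 with group means taken out. HSFA2C probe set 4766 (0.66, and 0.69 with group means taken out) and HSFA5 (0.52, and 0.70) were most like HSFA1. HSFA4B and HSFA2E were most like each other, with 0.68, and 0.36 with group means taken out. HSFA4D was most like HSFA2A probe set 2292.1, with 0.66, and 0.22 with group means taken out. HSFA2D probe set 2217 was most like HSFA5, with 0.24, and 0.45 with group means taken out.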

How the data were processed

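By the study's methods the authors ran RMA of the Affy package, and what they deposited are linear intensities. Its version and the step back from log2 are not given here. RMA's quantile step is meant to set arrays to a like distribution, which can hide changes shared by most genes. The deposited array medians still differed, from 55.8 to 68.8, so shifts of whole arrays may remain in the values tested. Here log2 of the deposited intensity of 57194 probe sets (187 controls left out) was fitted with limma 3.58.1 in R 4.3.3, with a mean for each of 12 groups over 36 arrays, and tested on simulated data first. Their number, 3 arrays a group, limits the precision. The p values were adjusted by Benjamini-Hochberg within each contrast. Genes were named through the platform annotation and RefSeq symbols (22436 probe sets with 1 gene, 95 with several, 34850 with none). Tables were made with pandas 2.3.3 and figures with matplotlib 3.10.9.

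Members and lists were chosen with earlier results of these data known. Every member was named, with up to 4 genes of each other list with the largest average response, the called ones, and the 5 genes most like HSFA2A. Genes named for the replicate 3 contrast alone, such as HSFB2A, HSP18.8 and MADS15, were chosen after their values were seen. A gene with several probe sets was represented in the lists by its brightest. Listed HSF partners and galactinol synthases matched no probe set, and of 13 HSP70 and BiP names only BIP1 and BIP4 did. Alternatives were an offset of 50, quantile normalization, a trended robust fit, brighter probe sets, a fit of each variety alone, a replicate block and leaving out arrays or replicate numbers. Within a variety, same-numbered drought-stressed and well watered arrays did not deviate together (r -0.30 to 0.20, 4 of 18 pairs over 0.1). No pairing was therefore used. Between varieties, same-numbered well watered arrays had a median r of 0.25 for replicate 3 (-0.03 to 0.46). It was 0.15 for replicate 1 and 0.01 for replicate 2. In drought-stressed arrays it was 0.06 for replicate 3, 0.08 for replicate 1 and -0.01 for replicate 2. The fit of group means has no replicate term. Its standard errors, p values and shares passing do not allow for deviations shared between varieties.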

Additional observations from a re-analysis of the deposited data

Results flagged for a closer look

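In 7 of 72 probe sets tested, 14 of class A factors and 58 of the other lists, replicate 3 stood apart from replicates 1 and 2 differently in drought-stressed and well watered panicles, by limma's test of that difference (log2, drought-stressed minus well watered). The contrast was chosen after the values were seen, and 1.42% of all probe sets passed it. It was -1.80 for HSFA2C probe set 10942 (adjusted p = 0.0365), the 1 class A factor among them, and leaving out any of 12 of the 36 arrays ended this call (adjusted p between 0.0518 and 0.0814). It was -1.19 for HSFB2A (adjusted p = 0.0152), -1.0 for HSFB2B (0.0255) and -0.901 for HSFB4B (0.0423), all class B factors. It was -2.08 for HSP16.9A (0.0244), -2.04 for HSP24.1 (0.0328) and -0.536 for HSP18.8 (0.0339), all small heat shock proteins.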

How the results depend on the processing

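Of 46 alternatives for the average drought response 32 left the count of members that passed at 0. The count was 1 with quantile normalization (HSFA2E, -0.096, adjusted p = 0.0273), 2 with the replicate block (HSFA2C probe set 4766, 0.286, and HSFA1, 0.178) and 2 without well watered replicate 3. Leaving out arrays or a replicate number gave 0 to 4, and 3 without HUHAN3 well watered replicate 1 or HUHAN3 drought-stressed replicate 3. The count by variety was 0 to 1, with 1 without HUHAN3 well watered replicate 1, and tolerant minus sensitive and the interaction stayed at 0 in 45 alternatives each. The well watered level among varieties gave 4 with quantile normalization and 2 to 4 on leaving out arrays or numbers. Well watered replicate 3 minus 1 and 2 gave 5 to 9. The F test over replicate numbers gave 8 among the brighter probe sets, where 12 members were tested, and 4 to 9 on leaving out an array. Indica minus japonica gave 2 to 5, and 2 without replicate 1 or replicate 2. The cause of these changes was not tested.

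Some average responses changed sign. With quantile normalization HSFA2D probe set 2217 had -0.0271. Without well watered replicate 3, HSFA2C probe set 10942 had 0.42, HSFA2D probe sets 2217 and 40021 had -0.00756 and 0.0334, HSFA4B 0.118 and HSFA5 -0.002, while HSFA2B had 0.347. On leaving out arrays or numbers HSFA2A probe set 2292.2 ran from -0.0697 to 0.555 and 2292.3 from -0.0286 to 0.986. HSFA2B ran from -0.0157 to 0.275, HSFA2C probe set 10942 from -0.699 to 0.246, HSFA2D probe set 2217 from -0.0232 to 0.0917 and 40021 from -0.167 to -0.057. HSFA4B ran from -0.151 to 0.0144 and HSFA5 from 0.00626 to 0.149. No member changed sign in the well watered replicate 3 contrast.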
